A study of Mus musculus with 12 samples.

Results

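The comparison was of distal colon epithelium from mice lacking Cftr in the intestinal epithelium with that of mice with intact Cftr. Its members were the 3 arrays titled as Cftr-mutant colon and the 3 titled as Cftr-wild-type colon, 6 of the 12 arrays in the study. All mice were C57BL/6, Apc+/+ and 3 months old. The mutants were Cftr fl/fl with Villin-Cre, and the controls were Cftr+/+. Villin-Cre is a transgene that makes the Cre recombinase from the villin promoter, which is active in intestinal epithelial cells, so other cell types keep the floxed gene. The genotype field gives Villin-Cre for both groups, whereas the growth protocol gives it only for the floxed mice, so the labels do not settle whether the controls carried Cre. The design text describes epithelium taken from the distal colon, whereas the extraction protocol speaks of whole colon tissue. No field ties an array to a named mouse, so the scatter behind a p-value here may be technical. That scatter is the spread within groups, pooled over colon and small-intestinal arrays unless a fit of colon arrays alone is named. It is therefore not a measure of how far the 6 colon arrays scatter by themselves. The study's title asks whether Cftr acts as a tumour suppressor of the intestine.

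Cftr is an anion channel of the apical membrane that conducts chloride and bicarbonate. In the crypts of the intestine it drives fluid secretion, and bicarbonate leaving through it helps secreted mucins to unfold. In colon, secretion by Cftr works against absorption of sodium through the epithelial sodium channel and of chloride through exchangers such as Slc26a3, which sit mainly in surface cells.

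Expression was read on Illumina mouse BeadChip arrays, on which each probe reports the brightness of 1 transcript. Values are the deposited log2 values, whose background lay at 7.70, and a probe counted as above background past a limit of 7.78. After probes above that limit on at least 3 of the 12 arrays were kept and 1 probe was taken per gene, 15909 features remained, 12132 of them named genes. Between 42.9% and 43.0% of all probes lay above the limit on each colon array. Differences below are mutant minus wild type on the log2 scale, where 1 is a doubling in brightness, and they understate changes of dim probes.

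The 6 colon arrays did not sort by genotype. Wild type 1 and mutant 1 were the closest of the 15 pairs, with values that differed by an SD of 0.0825. Mutant 1 was next closest to wild type 2, at 0.104. Its distances to the other mutants were larger, 0.182 to mutant 2 and 0.155 to mutant 3. Wild-type arrays differed from each other by 0.112 to 0.152, and mutant 2 from mutant 3 by 0.194. Over the 113 features that spanned more than 1 on the log2 scale across the colon arrays, wild type 1 and mutant 1 differed by a median of 0.0695. No feature differed by more than 1 between that pair, and 4 differed by more than 0.5. The labels list both arrays as separate samples of opposite genotype. Results below are given with all 6 arrays and, where they turn on it, without mutant 1 or without this pair.

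**Figure D1:**
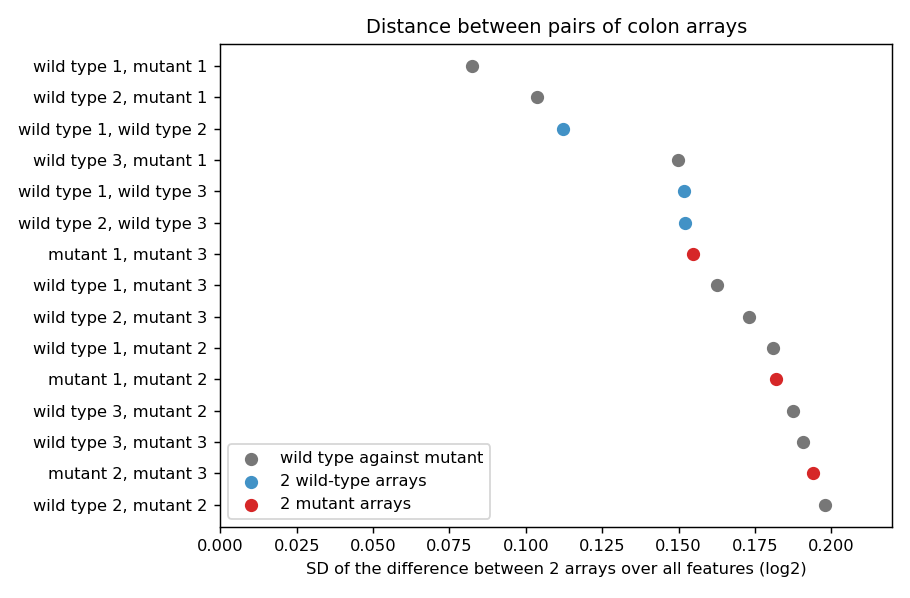
Distance between every pair of the 6 colon arrays, as the SD of their difference over 15909 features on the log2 scale (x axis), with 1 point per pair, coloured by whether the pair shares a genotype. The pair of wild type 1 and mutant 1 lies at 0.0825, left of all 3 pairs of wild-type arrays (0.112 to 0.152) and of all 3 pairs of mutant arrays (0.155 to 0.194).

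Markers of colon epithelium were bright on every array. Muc2, the main gel-forming mucin of goblet cells, read between 14.63 and 14.72, and Car1, a carbonic anhydrase of surface colonocytes, between 14.41 and 14.69. The probe for the epithelial adhesion protein Epcam stayed near the limit on all 6 arrays, at 7.69 to 7.84, so it gave no information. The Y-linked gene Eif2s3y read 8.87 to 9.13 and Xist 7.71 to 7.79, which showed no difference in sex among the 6 arrays. Mutant 2 stood apart in some markers of other cells and of Paneth cells, which are a cell type of the small intestine. Its mean over 12 Paneth and deep crypt secretory markers was 10.39, against 8.69 to 9.23 on the other 5 arrays, and its mean over 6 erythrocyte genes was 10.63, against 9.31 to 9.82. Defa20, a Paneth cell defensin, read 13.47 on mutant 2 and 7.66 to 8.32 elsewhere. Not every member of that list followed. Ang4 read 11.86 on mutant 2 and 13.65 on wild type 1, and Pla2g2a read 8.40 on mutant 2 and 8.47 on mutant 3. Dcn, a matrix proteoglycan of fibroblasts, read 10.66 on mutant 2 and 8.24 to 8.88 elsewhere, and the T cell marker mean was 8.55 on mutant 2 against 8.22 to 8.38. Its mean over 20 markers of small-intestinal absorptive cells was 8.46, against 8.11 to 8.19 elsewhere, with the apolipoprotein gene Apoa1 at 10.12 on mutant 2 and 7.72 to 7.99 elsewhere. The smooth muscle and mast cell marker means of mutant 2, 8.20 and 8.14, lay below those of wild type 3, 8.21 and 8.16. Without mutant 2 the differences of Dcn and of the haemoglobin gene Hba-a1 turned from positive to negative, -0.05 and -0.01. In bulk samples, a change in the number of cells of a type and a change in RNA per cell cannot be told apart.

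The targeted gene did not separate the groups. The Cftr probe above the limit read 8.13, 7.95 and 7.97 on wild type 1, 2 and 3, and 7.94, 8.21 and 8.19 on mutant 1, 2 and 3. The highest values were those of mutant 2 and 3, and the groups overlapped. The difference was 0.09 ± 0.08 (SE, limma adjusted p = 0.956), with a 95% interval from -0.08 to 0.27. The other Cftr probe never exceeded the limit on any of the 12 arrays. The labels and annotation do not say where either probe lies relative to the floxed part. A probe outside the deleted part checks nothing, so the genotype labels could not be checked from these arrays.

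Across genes, no feature passed at an adjusted p under 0.05 in colon (0.0% of 15909, limma with Benjamini-Hochberg adjustment). An unadjusted p under 0.05 was given to 812 features, or 5.1%, and the smallest adjusted p was 0.63. The 3 mutant arrays all lay above the 3 wild-type arrays for 739 features (4.65%) and all below for 672 (4.22%). Differences were small in most genes: their median size was 0.036, the 95th percentile was 0.171, and 15 features differed by more than 1. At the median SE of 0.0516 the 95% interval of a difference reached 0.115 to either side, which is a 1.08-fold change. A true change smaller than that reach could often not be told from none. The intervals are for single genes and are not adjusted over the 15909 features, so 1 that excludes 0 is not a call.

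Among named genes whose groups did not overlap, the 12 with the smallest p-values in each direction are described next, and none of the 24 passed. Dbnl, an actin-binding adaptor protein, read 8.90, 8.88 and 8.92 on the wild-type arrays and 9.07, 9.09 and 9.15 on the mutant arrays. All 3 mutant arrays lay above wild type, mutant 1 included, and the difference was 0.20 ± 0.03 (SE, limma adjusted p = 0.63, 1.15-fold). Cd177, a surface glycoprotein known from neutrophils, read 12.04, 11.86 and 11.59 in wild type and 12.13, 12.52 and 12.66 in mutant. Here mutant 1 exceeded wild type 1 only narrowly, and the difference was 0.60 ± 0.13 (limma adjusted p = 0.94). 2 further genes that neutrophils express stayed near the limit: S100a8 read 7.70 to 7.999 and Lcn2 7.70 to 8.07 over the 6 arrays. The mean of the 7 neutrophil markers was 8.32 to 8.36 on wild-type arrays and 8.37 on mutant 1. On mutant 2 and 3 it was 8.51 and 8.54. Cd177 is among the 7, so this mean is not a reading of neutrophils apart from Cd177. The part of neutrophils in the Cd177 result was not tested. Higher in all 3 mutant arrays, without passing, were also the lysosomal protease Ctss by 0.14 ± 0.03, the shared receptor subunit of the interleukin-6 family Il6st by 0.15 ± 0.03 and 1500009L16Rik by 0.22 ± 0.05. The others of the 12 smallest p-values on the higher side were Atp5k, a subunit of mitochondrial ATP synthase, Uchl3, a ubiquitin hydrolase, Tnfrsf11b, a decoy receptor for the cytokine Tnfsf11, Hpn, a membrane serine protease, St3gal1, a sialyltransferase, Rin3, an activator of endosomal Rab proteins, and Prdx4, a peroxiredoxin of the endoplasmic reticulum. Their differences were 0.12 to 0.30. The wild-type values of Tnfrsf11b, 7.73 to 7.75, and of the Hpn probe in the fit, 7.73 to 7.75, lay below the limit. Another Hpn probe, above the limit on all 6 colon arrays, differed by -0.01.

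On the lower side the smallest p was that of Uba6, an enzyme that activates ubiquitin. It read 8.99, 9.05 and 8.93 in wild type and 8.64, 8.70 and 8.51 in mutant. The gap between the groups was wider than the spread within either, with mutant 1 between the other 2 mutant arrays. Its difference was -0.38 ± 0.06 (SE, limma adjusted p = 0.94). Defb37, a beta-defensin, read 9.04, 9.61 and 9.56 in wild type and 8.95, 8.52 and 8.50 in mutant. Mutant 1 and wild type 1 were within 0.1 of each other, and the difference was -0.75 ± 0.15. Ihh, the hedgehog ligand that surface colonocytes send to the stroma, read 9.27, 9.46 and 9.43 against 9.15, 9.12 and 9.08, a difference of -0.27 ± 0.06. Also lower without passing were Slc17a9, a vesicular nucleotide transporter, by -0.21 ± 0.05, Ppp3r1, the regulatory subunit of calcineurin, by -0.23 ± 0.05, and Pkmyt1, a kinase that inhibits Cdk1, by -0.27 ± 0.06. A second Pkmyt1 probe above the limit on all 6 colon arrays differed by 0.03, in the opposite direction. The other 6 were St6galnac2, Tnp1, Ephx4, Grcc10, Dclk3 and Mfap3l, with differences from -0.29 to -0.11.

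**Figure D2:**
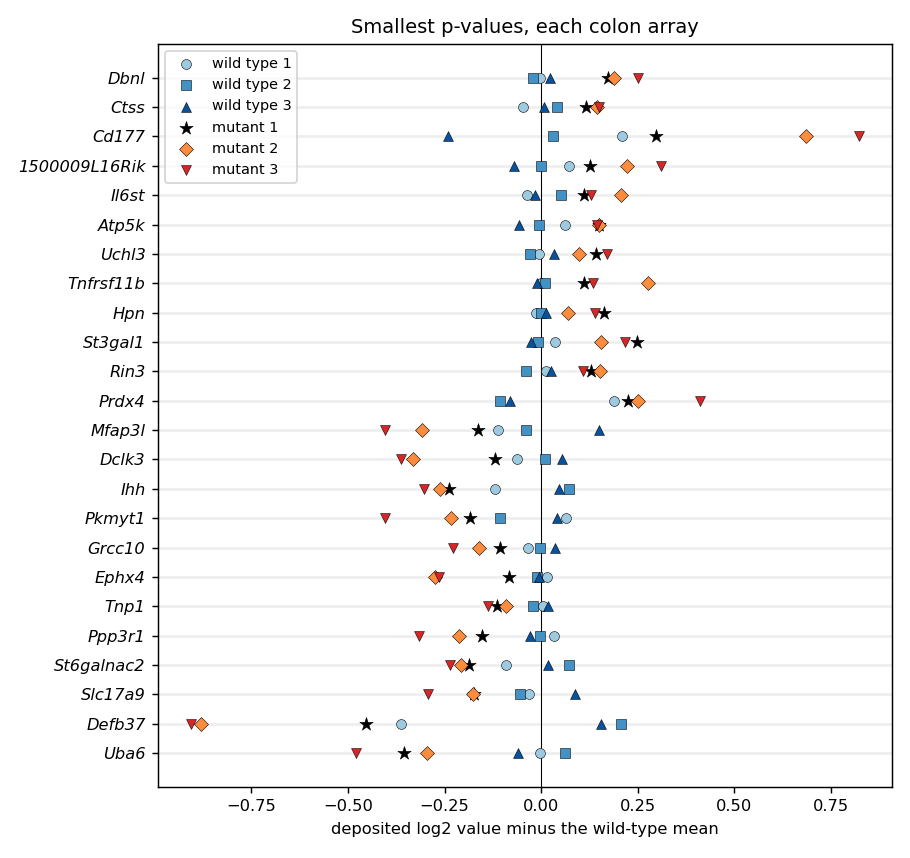
Deposited log2 value on each of the 6 colon arrays minus the wild-type mean (x axis) for the 24 named genes with the smallest p-values among those whose groups do not overlap, 12 in each direction. For Uba6 mutant 1 (star) lies among the other mutant arrays, whereas for Defb37, Cd177 and Mfap3l it lies next to wild type 1.

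The 5 largest mean differences in each direction were taken among genes above the limit on all 3 arrays of a colon group. Slpi, a secreted inhibitor of leukocyte proteases, read 8.61, 8.37 and 8.18 in wild type and 8.61, 10.87 and 10.61 in mutant. Mutant 1 read like wild type 1, while the other 2 mutant arrays stood at least 2 above it. Over all arrays the difference was 1.65 ± 0.46 (SE, limma adjusted p = 0.938, 3.13-fold), with a 95% interval from 0.63 to 2.66. That interval is for a single gene and is not adjusted over all features or for choosing genes by size. It is therefore not a call, although it excludes no change. Reg3g, a lectin that binds Gram-positive bacteria, read 9.16, 8.02 and 9.48 in wild type and 9.02, 10.09 and 12.02 in mutant, a difference of 1.49 ± 0.68. Without mutant 3 it was 0.66. Clca4b, of a family named for calcium-activated chloride conductance, read 8.85, 8.31 and 8.41 against 8.92, 9.88 and 11.06, a difference of 1.43 ± 0.43. Without mutant 3 it was 0.88. Ly6m, of the Ly6 family, read 9.21, 8.96 and 9.02 against 9.40, 10.90 and 10.97, a difference of 1.36 ± 0.42. Mutant 1 was the lowest mutant array for all 4 genes. Lyz1, the lysozyme of Paneth cells, read 11.53 on mutant 2 and 8.48 to 9.05 on the other 5 arrays. Its difference of 1.11 ± 0.59 was 0.19 without mutant 2, the array with the highest mean of Paneth cell markers.

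Sycn, syncollin, known as a protein of secretory granules, read 13.17, 13.74 and 13.53 in wild type and 13.23, 11.53 and 11.39 in mutant. Mutant 1 lay within the wild-type range and the difference was -1.43 ± 0.74 (SE, limma adjusted p = 0.938). The gasdermin Gsdmc2 read 12.41, 12.79 and 11.28 against 12.34, 10.27 and 10.77, a difference of -1.03 ± 0.53, and its relative Gsdmc3 differed by -0.94 ± 0.41. In both, mutant 1 lay within the wild-type range, and wild type 3 was the lowest wild-type array. With single arrays left out the Gsdmc2 difference ran from -1.64, without mutant 1, to -0.60, without mutant 2. Cyp4b1-ps2, a pseudogene of a cytochrome P450, read 8.92, 9.50 and 9.38 against 8.75, 8.78 and 8.10, a difference of -0.72 ± 0.18. Here every mutant array lay below every wild-type array, mutant 1 included. Cyp4b1 itself differed by -0.58 ± 0.18. The Gsdmc, Clca4, Defa, haemoglobin and Cyp4b1 genes have close copies, so probes of a family may share signal.

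**Figure D3:**
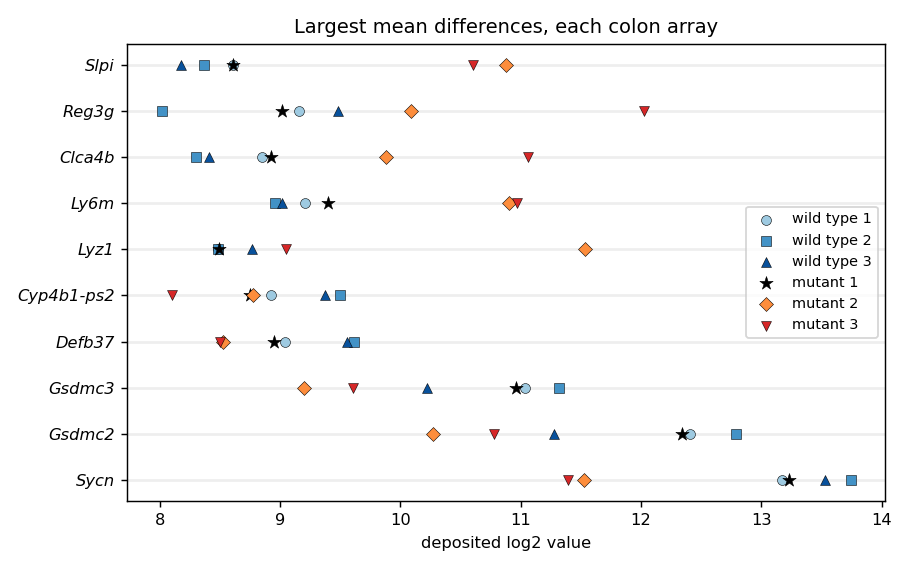
Deposited log2 value (x axis) on each of the 6 colon arrays for the 5 genes with the largest positive and the 5 with the largest negative mean difference. Genes were taken among those above the limit on all 3 arrays of a colon group. Mutant 1 (star) lies at or near wild type 1 (circle) in nearly every gene, with Slpi at 8.61 on both. Mutant 2 and 3 lie apart from them in most genes. In Lyz1 only mutant 2 lies far away, and in Cyp4b1-ps2 mutant 2 lies beside mutant 1.

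Leaving out mutant 1 changed the count of calls. With mutant 2 and 3 against the 3 wild-type arrays, 31 features passed (limma, Benjamini-Hochberg), or 0.195% of 15909, with 16 higher (0.101%) and 15 lower (0.0943%). Leaving out wild type 1 gave 1 call (0.00629%), and leaving out any other single colon array gave 0. Mutant 1 was left out because of how it lay among these arrays, so these calls describe mutant 2 and 3, not the genotype. Of the 31 features, 30 had mutant 1 nearer to the wild-type mean than to the mean of the other mutants, and in 9 it lay within the wild-type range. Without wild type 1 as well, 23 features passed, 10 higher and 13 lower. With only the colon arrays in the fit, a setting chosen after seeing the data, 4 features passed without mutant 1, 3 of them among the 31.

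Among the 16 that were higher in mutant 2 and 3 was Slpi, at 2.36 ± 0.12 (SE, limma adjusted p = 1.34e-04, 5.12-fold). Anxa4, a calcium-dependent membrane-binding protein of secretory epithelia, read 9.07, 8.99 and 8.99 in wild type and 8.91, 10.03 and 10.25 in mutant. It rose by 1.12 ± 0.13 without mutant 1 (limma adjusted p = 0.0111) and differed by 0.71 ± 0.28 with it. Dlk1, a ligand-like relative of Notch ligands, read 7.96, 7.90 and 7.88 against 7.96, 8.66 and 9.03, with a rise of 0.93 without mutant 1. Cyp2d9, a cytochrome P450, read 9.36, 9.26 and 9.48 against 9.44, 10.23 and 10.25, with a rise of 0.87. For both, mutant 1 lay within the wild-type range. Capg, an actin-capping protein, Ly6g6c, Ppic, a prolyl isomerase of the endoplasmic reticulum, and Fut2, the fucosyltransferase that makes H antigen on mucins, also passed, with rises of 0.87, 0.88, 0.65 and 0.66. Epdr1 rose by 0.43 from wild-type values of 7.89 to 7.90, near the limit, and Cd177 by 0.75. Myo18b rose by 0.43 from wild-type values of 7.66 to 7.67, which lay at background, so its difference is bounded by background.

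Among the 15 that were lower in mutant 2 and 3 was Gfpt1, the rate-limiting enzyme of the hexosamine pathway. It read 13.25, 13.27 and 13.24 in wild type and 13.15, 12.44 and 12.30 in mutant. Its value fell by 0.89 without mutant 1 (limma adjusted p = 0.0127) and differed by -0.63 ± 0.19 (SE) with it. The next brightest probes of the gene, at 8.04 and 7.87 in wild type, differed by -0.03 and 0.03 over all 6 arrays. Pigt, a subunit of the transamidase that attaches GPI anchors, read 10.85, 10.65 and 10.76 against 10.89, 10.24 and 10.09. Its difference was -0.59 without mutant 1 and -0.35 with it. Copz2, a coatomer subunit, and Vkorc1, the vitamin K epoxide reductase, fell by 0.47 and 0.49. Nrep, Kcnh3, a voltage-gated potassium channel, Nrn1, Mt3, a metallothionein, Mettl7a2 and Dclk3 fell by 0.61, 0.42, 0.39, 0.36, 0.36 and 0.35. Ephx4, of the epoxide hydrolase family, fell by 0.27. For 13 of the 31 features more than 1 probe passed the limit on at least 3 arrays, and in 12 of these those probes shared a direction over all 6 arrays.

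**Figure D4:**
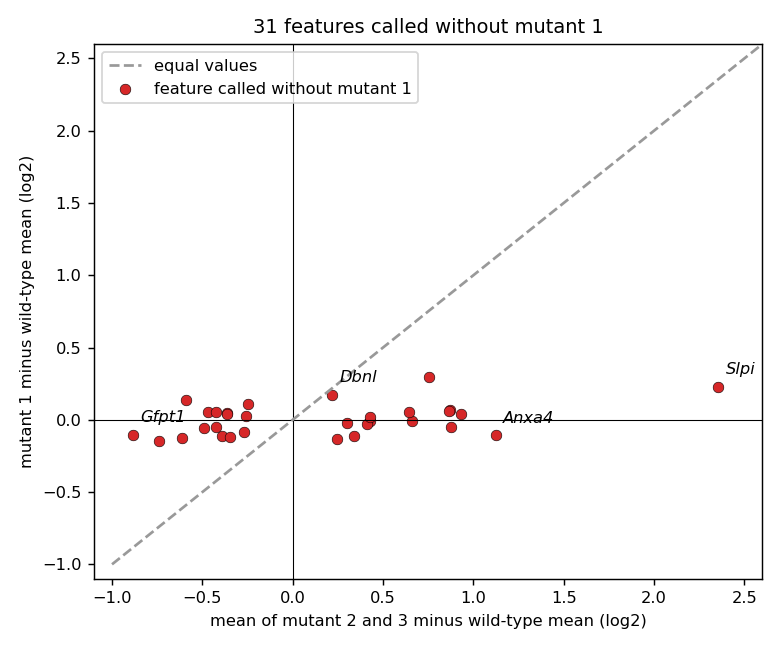
For the 31 features that passed without mutant 1, the mean of mutant 2 and 3 minus the wild-type mean (x axis) against mutant 1 minus the wild-type mean (y axis), both on the log2 scale, with 1 point per feature and a dashed line where both are equal. In 30 of the 31 features mutant 1 is nearer to the wild-type mean than to that of the other mutant arrays, which reach 2.36 at Slpi. The selection used the x values.

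Genes were then read by function, over 39 lists with 590 different members above the limit on at least 3 arrays of the study, colon or small intestine. Some members were therefore below the limit on every colon array, among them 4 smooth muscle, 4 endothelial and 3 fibroblast markers, while other lists held no such member. Signs of such members in colon are those of background. No member passed with all arrays. The groups did not overlap for 50 members, 34 higher and 16 lower, or 8.47% against 8.87% over all features. The median difference was 0.0109 over the members and -0.00038 over all features. Without mutant 1, 4 of the 590 members passed, Slpi, Fut2, Anxa4 and Cd177, where 31 of all 15909 features (0.195%) did. The lists were chosen with earlier results of these data known.

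Of 28 measured genes of chloride, bicarbonate and fluid transport, 0 passed, 14 were higher and 14 lower, and the median difference was -0.0039. Slc4a4, the basolateral sodium bicarbonate cotransporter that loads epithelial cells with bicarbonate, read 10.19, 10.01 and 9.99 in wild type and 9.87, 9.61 and 9.15 in mutant. Every mutant array lay below every wild-type array, and the difference was -0.52 ± 0.25 (SE, limma adjusted p = 0.938). Its other 3 probes stayed at the background or the limit. Slc4a2, a basolateral anion exchanger, read 11.79, 11.88 and 12.01 against 11.80, 11.61 and 11.81, a difference of -0.15 ± 0.07. Slc26a3, the apical exchanger that absorbs chloride, read 10.78, 10.95 and 11.38 against 10.73, 10.79 and 10.94. It differed by -0.22 ± 0.13 with overlapping groups, and by -0.05 without wild type 3. Slc12a2, the basolateral cotransporter that brings in chloride for secretion, read 12.58, 12.45 and 12.93 against 12.41, 12.62 and 12.36. Its difference was -0.19 ± 0.11, and -0.05 without wild type 3. For Clca4a the values were 11.07, 10.64 and 11.75 against 10.96, 12.81 and 12.14, with a difference of 0.82 ± 0.45, which was 0.40 without mutant 2 and 1.32 without mutant 1. Slc26a6, an apical chloride bicarbonate exchanger, stayed at 7.78 to 7.80 on 5 arrays, by the limit, and read 8.01 on mutant 2. The bestrophin channel Best2 and the sodium proton exchanger Slc9a3 differed by -0.01 ± 0.10 and 0.05 ± 0.33, and both changed sign when single arrays were left out. The 1 probe for Kcne3, a subunit of the basolateral potassium channel that sustains chloride secretion, was not above the limit on enough arrays to be tested.

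Absorption of sodium and potassium was represented by 17 genes, of which 12 were lower and 5 higher, with a median difference of -0.07. Fxyd4, a regulatory subunit of the sodium pump in colon, had the largest difference. It read 8.79, 9.29 and 9.50 in wild type and 8.81, 8.38 and 8.42 in mutant. Mutant 1 again matched wild type 1, mutant 2 and 3 were below all wild-type arrays, and the difference was -0.65 ± 0.16 (SE, limma adjusted p = 0.938). Nr3c2, the aldosterone receptor, was the only member whose groups did not overlap, at 7.80 to 7.83 against 7.72 to 7.77, close to the limit. Over all features 4.22% were lower without overlap. Scnn1b, a subunit of the epithelial sodium channel, differed by -0.21 ± 0.12, or -0.02 without wild type 3, and Atp12a, the colonic proton potassium pump, by -0.29 ± 0.16. Neither passed.

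Wnt signalling drives renewal of crypt cells and is restrained by the tumour suppressor Apc. Of its 20 measured pathway genes and targets 0 passed, 9 were higher and 11 lower, and the median difference was -0.02. Apc read 7.97, 8.02 and 7.99 in wild type and 7.96, 7.92 and 7.94 in mutant. The groups did not overlap but lay close together, and the difference was -0.05 ± 0.05 (SE, limma adjusted p = 0.956). Fzd5, a Wnt receptor, read 11.08, 11.09 and 11.39 against 11.05, 11.06 and 10.81, a difference of -0.21 ± 0.10. The destruction complex member Axin1 and the effector Ctnnb1 differed by 0.20 ± 0.08 and 0.20 ± 0.12. A dimmer Axin1 probe differed by -0.04, and of 3 dimmer Ctnnb1 probes 1 differed by 0.12 and the others by -0.13 and -0.01. Among Wnt targets, Axin2, a feedback inhibitor, differed by -0.13 ± 0.10, Rnf43, which removes Wnt receptors, by -0.09 ± 0.05, and Myc by 0.03 ± 0.03. Ccnd1, a cyclin of the G1 phase, differed by 0.06 ± 0.14 and changed sign without mutant 1 or mutant 3. Of 14 tumour suppressor genes and oncogenes 0 passed. Fbxw7, part of a ubiquitin ligase that targets Myc, differed by -0.13 ± 0.05 and Cdkn1b, an inhibitor of cyclin-dependent kinases, by -0.14 ± 0.06.

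Among 19 stem cell markers, 13 were lower and 6 higher, with a median difference of -0.04 and 0 passing. Bmi1, a Polycomb protein, was the 1 member whose groups did not overlap, at 7.94 to 7.98 against 7.87 to 7.92, where 4.22% of all features were lower without overlap. Lgr5, the receptor that marks crypt base stem cells, read 7.98, 7.89 and 8.10 in wild type and 7.95, 7.87 and 7.79 in mutant. The groups overlapped, all values were close to the limit, and the difference was -0.12 ± 0.06 (SE, limma adjusted p = 0.938). Ascl2, a transcription factor of stem cells, differed by -0.02 ± 0.04 and changed sign without mutant 2. Prom1 and Hopx differed by 0.22 ± 0.09 and -0.24 ± 0.13.

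In the proliferation list 5 of 20 members lay higher on every mutant array than on any wild-type array and 0 lower, where 4.65% and 4.22% of all features did. In all 17 were higher and 3 lower, with a median difference of 0.08 and 0 passing. Cdc20, an activator of the anaphase-promoting complex, read 9.999, 9.67 and 10.01 in wild type and 10.10, 10.18 and 10.20 on the mutant arrays, with a difference of 0.27 ± 0.10 (SE, limma adjusted p = 0.938). Cenpa, the histone variant of centromeres, read 11.03, 10.53 and 10.85 against 11.06, 11.13 and 11.06, a difference of 0.28 ± 0.12. Bub1b, a kinase of the spindle checkpoint, read 9.05, 8.84 and 9.03 against 9.19, 9.24 and 9.18, a difference of 0.23 ± 0.08. In each gene wild type 2 was the lowest array, wild type 1 came within 0.2 of mutant 1, and the mutant arrays lay close together. Without wild type 2 the differences of Cdc20, Cenpa and Bub1b were 0.15, 0.15 and 0.16. A second Bub1b probe differed by -0.01. Cdk1, the kinase that starts mitosis, read 9.13, 8.84 and 8.93 against 9.15, 9.11 and 9.27, and its groups overlapped. Pcna and Mcm6, of DNA replication, were the remaining members without overlap, with differences of 0.07 and 0.09, Pcna close to the limit.

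The promoters of the 3 mitotic genes whose groups did not overlap are shown because such genes are known to share CCAAT boxes and a cell cycle element written TTTGAA. Each run is 300 bases, from 250 before to 50 after the annotated start, 5′ to 3′ on the gene's strand, from RefSeq on GRCm38.p6. Capitals mark CCAAT or its reverse complement ATTGG, and TTTGAA or its reverse complement TTCAAA. Bub1b is at chr2:118597961-118598260 on the plus strand, Cdc20 at chr4:118437294-118437593 on the minus strand and Cenpa at chr5:30666636-30666935 on the plus strand.
Bub1b: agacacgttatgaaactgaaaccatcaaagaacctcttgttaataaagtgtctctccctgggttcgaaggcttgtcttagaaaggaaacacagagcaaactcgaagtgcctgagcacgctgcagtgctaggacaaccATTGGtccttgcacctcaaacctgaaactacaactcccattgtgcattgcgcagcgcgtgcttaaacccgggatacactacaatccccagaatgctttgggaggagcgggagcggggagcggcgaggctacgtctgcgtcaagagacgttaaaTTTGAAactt
Cdc20: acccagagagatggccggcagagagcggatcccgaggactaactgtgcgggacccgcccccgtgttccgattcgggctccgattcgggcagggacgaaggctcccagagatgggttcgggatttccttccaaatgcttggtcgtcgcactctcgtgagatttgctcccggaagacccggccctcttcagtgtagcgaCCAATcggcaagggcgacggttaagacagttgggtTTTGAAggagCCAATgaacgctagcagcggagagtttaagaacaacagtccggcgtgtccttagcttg
Cenpa: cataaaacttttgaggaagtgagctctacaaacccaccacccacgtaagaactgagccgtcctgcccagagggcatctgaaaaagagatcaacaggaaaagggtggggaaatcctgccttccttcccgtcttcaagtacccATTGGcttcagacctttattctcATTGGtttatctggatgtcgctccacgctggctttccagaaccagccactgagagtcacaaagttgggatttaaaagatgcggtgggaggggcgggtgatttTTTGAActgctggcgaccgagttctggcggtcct
All 3 hold both motifs. CCAAT occurred on either strand in 37.4% of 32851 promoter windows of the same length, TTTGAA in 17.9%, and both together in 6.95%. Among the 20 proliferation genes above the limit, 17 had a promoter in the table, and 9 of these held both. A match is a description of these letters and was not tested as a site.

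Defence genes varied within both groups. Of 26 epithelial innate defence genes 18 were higher and 8 lower, with a median difference of 0.09, 3 of them higher without overlap and 1 lower, where 4.65% and 4.22% of all features were. With all arrays 0 passed, and without mutant 1 Slpi passed, where 0.195% of all features did. Saa2, a serum amyloid A protein, read 8.06, 7.99 and 8.09 in wild type and 8.22, 8.12 and 8.22 in mutant, all above wild type, with a difference of 0.14 ± 0.04 (SE, limma adjusted p = 0.938). Pigr, the receptor that carries immunoglobulin A across the epithelium, read 11.93, 11.79 and 11.97 against 11.80, 11.35 and 11.65, a difference of -0.30 ± 0.12. The list mean was 10.01 on wild type 1 and 9.98 on mutant 1, against 9.78 and 9.77 on wild type 2 and 3 and 10.07 and 10.18 on mutant 2 and 3.

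Cytokine and NF-kB target genes were higher in 18 of 22 cases, 4 of them without overlap (4.65% over all features) and 0 passing, with a median difference of 0.08. Icam1, an adhesion molecule for leukocytes, read 7.91, 7.95 and 7.88 against 8.03, 8.11 and 8.09, a difference of 0.17 ± 0.05. Il1b read 7.71 to 7.74 in wild type, below the limit, and 7.79 to 7.92 in mutant, at or just above it. Macrophage and B cell markers were dim on average. The mean of 17 macrophage markers was 7.97 to 8.03 on the wild-type arrays, 7.99 on mutant 1 and 8.15 and 8.09 on mutant 2 and 3. That of 7 B and plasma cell markers was 7.76 to 7.77 on all 6. Their part in the cytokine result was not tested. Immediate early genes, which respond to stimuli and to tissue handling, were higher in 15 of 21, with a median difference of 0.07. Averaged over the list, mutant 2 and 3 reached 9.18 and 9.07, while mutant 1 read 8.94 and wild type 8.94 to 8.99. The mutant 3 mean includes the heat shock gene Hspa1a at 9.80, which read 7.80 to 8.10 elsewhere. On mutant 3, Fos, at 10.08, lay within its wild-type range of 9.91 to 10.17, while Ier3, at 9.34, lay above its wild-type values. Atf3, a transcription factor induced by stress, read 8.07, 7.99 and 7.99 against 8.09, 8.14 and 8.38, a difference of 0.19 ± 0.09.

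Mucus genes showed no common shift. Of 21 goblet cell markers 10 were higher and 11 lower, and the Muc2 difference was -0.04 ± 0.05 (SE, limma adjusted p = 0.981), with a 95% interval from -0.15 to 0.07. Spdef, a transcription factor of goblet cells, differed by -0.19 ± 0.10 and Klk1 by -0.28 ± 0.17. Of 19 enzymes of mucin glycosylation 11 were higher and 8 lower. St6galnac2, a sialyltransferase that caps mucin glycans, read 10.87, 11.04 and 10.98 against 10.78, 10.75 and 10.73. Every mutant array was lower, by -0.21 ± 0.04 in the mean, while a second probe above the limit on all 6 arrays differed by 0.02. Fut2 read 10.42, 10.41 and 10.47 against 10.43, 10.92 and 11.26, so that mutant 1 stayed in the wild-type range. St3gal6, a sialyltransferase, and Chst4, a sulfotransferase, differed by -0.44 ± 0.18 and 0.20 ± 0.09.

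Of 19 annexins and S100 proteins, 12 were higher and 7 lower, with a median difference of 0.05. Anxa5 read 9.73, 9.81 and 9.59 in wild type and 9.91, 10.01 and 10.27 on the mutant arrays, with a difference of 0.36 ± 0.10 (SE, limma adjusted p = 0.938). S100a11 read 12.85, 12.78 and 12.72 against 12.89, 13.42 and 13.69, a difference of 0.55 ± 0.21. Both were higher on all 3 mutant arrays, S100a11 only narrowly on mutant 1. Of the 19, 2 were higher without overlap and 1 lower, where 4.65% and 4.22% of all features were. Xenobiotic and antioxidant genes were divided, 19 higher and 18 lower. The carboxylesterase Ces1d read 11.05, 11.08 and 11.49 against 10.97, 10.66 and 10.08, a difference of -0.63 ± 0.20, and the sulfotransferase Sult1a1 differed by -0.48 ± 0.18.

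Lineage markers gave no call either. Surface colonocyte markers were higher in 11 and lower in 7 of 18, with a median difference of 0.01, and Car1 differed by 0.08 ± 0.07 (SE, limma adjusted p = 0.956). Tuft cell markers were lower in 11 of 13, with a median difference of -0.04 and differences no larger than -0.11. Fibroblast and matrix markers were higher in 15 of 16 and T cell markers in 11 of 13. Of the members counted, 3 fibroblast markers and 1 T cell marker were below the limit on every colon array. The fibroblast mean was 7.83 to 7.89 on the wild-type arrays, 7.82 on mutant 1, 8.17 on mutant 2 and 7.93 on mutant 3. Of the 39 lists, 0 had a member that passed with all arrays.

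The small intestine of the same study gave 108 calls (0.679% of 15909), but no feature passed for the difference between its genotype effect and that of colon (0.0%, limma, smallest adjusted p = 0.185). The 108 also moved with single arrays: the count was 0 without small-intestinal wild type 3, 2 without wild type 1 and 133 without wild type 2. Without mutant 1, 2 and 3 of small intestine it was 113, 149 and 76. It was 31 without the closest colon pair, and 34 with the array number as a replicate block. For the difference between tissues an unadjusted p under 0.05 was given to 944 features. That count of 0 rested on single arrays: it was 36 without small-intestinal wild type 2, 20, 13 and 8 without mutant 1, 2 and 3 of small intestine, and 5 without colon mutant 1. The smallest p-values were those of Rbp7, a retinoid-binding protein, Itga9, an integrin subunit, and Aldh1a7, an aldehyde dehydrogenase. In colon, Rbp7 read 7.98, 7.98 and 7.87 in wild type and 8.07, 8.07 and 8.11 on the mutant arrays, with a difference of 0.14 ± 0.06 (SE). In small intestine its difference was -0.52 ± 0.06. Aldh1a7 differed by 0.06 ± 0.06 in colon and by -0.44 ± 0.06 in small intestine. Itga9 was below the limit on all 6 colon arrays, so its colon difference of 0.03 is one of background. Anxa4, which passed in small intestine at 1.504 (limma adjusted p = 0.0477), was the only 1 of the 31 features called without mutant 1 that did, and its difference between tissues did not pass (limma adjusted p = 0.89).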

How the data were processed

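The authors deposited log2 values of 45281 probes on 12 arrays, with nearly equal distributions, as after quantile normalization. The submitters' processing notes name limma, without a version. How background was treated is not stated in the labels. A table of unnormalized signals with 24 columns, whose names match no sample's labels, was not used. Background was taken from the mode, 7.70, and from an SD of 0.0278 got by mirroring the values below the mode. Probes more than 3 such SD above the mode on at least 3 arrays were kept, 22737 in all. Genes were named from the platform annotation (34885 probes with 1 symbol, 18 with several, 10378 with none). The probe with the highest mean stood for its gene.

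A linear model per feature used limma 3.58.1 under R 4.3.3, with 4 group means over 12 arrays. It had 8 residual degrees of freedom and a variance prior with 2.15 degrees of freedom. P-values are two-sided, Benjamini-Hochberg adjusted over 15909 features, with a threshold of 0.05. With 3 arrays a group, exact permutation p-values have a minimum of 0.1. Depth does not apply to arrays, whose number limits the precision. The fit was tested on simulated data. Groups came from the titles. Alternatives covered the probe limit, probe choice, prior, weights, arrays in the fit, centring, a replicate block and single arrays left out. Same-numbered arrays deviated with correlations of 0.137, -0.208 and -0.041, and arrays of unlike number with -0.254 to 0.241. With 3 arrays a group these values cannot decide whether the numbers pair the samples.

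Named genes are the 10 largest that passed per direction or, failing that, the 12 with the smallest p among those without overlap. Added are up to 10 per direction called in a fit without 1 array, 15 genes fixed in design, up to 4 per list, the 5 largest differences per direction and the 3 smallest p of the tissue difference. The members and lists were chosen with earlier results of these data known. Epdr1, Bmi1, Pcna, Mcm6, S100a8, Epcam, Hspa1a and Fos fall outside this rule and were named after their values were seen.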

Additional observations from a re-analysis of the deposited data

How the results depend on the processing

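With all 6 colon arrays, 0 features passed under any alternative for the probe limit, the probe per gene, the variance prior, array weights, centring, a fit of colon arrays alone or the array number as a replicate block, which pairs arrays by number and also gave 0 in colon. The count was 0 to 31 when single arrays were left out, with 31 without mutant 1 and 1 without wild type 1. It was 23 without the closest pair, and 4 in colon arrays alone without mutant 1, a fit chosen after seeing the data. Of the genes the naming rule gives, 0 to 22 passed without single arrays, 14 without the closest pair and 4 in colon arrays alone without mutant 1. Of the list members, 0 to 4 passed without single arrays, 5 without the closest pair and 2 in colon arrays alone without mutant 1. For the difference between tissues, 0 became 1 with a trended robust prior, 2 with the replicate block, 6 without the closest pair and 0 to 36 without single arrays, with 36 without small-intestinal wild type 2, 20, 13 and 8 without mutant 1, 2 and 3 there, and 5 without colon mutant 1. The 108 calls in small intestine became 45 with the limit required on all 3 arrays of a colon group, 179 with array weights, 34 with the replicate block, 31 without the closest pair and 0 to 149 without single arrays. The cause was not tested. Over 110 genes and 28 alternatives, 3073 comparisons gave 44 calls gained, 0 lost and 26 changes of sign in 8 genes. With single arrays left out the difference of Ascl2 ran from -0.0525 to 0.0197 (the highest without mutant 2), that of Ccnd1 from -0.0104 to 0.185 (-0.0104 without mutant 1, -0.00400 without mutant 3), that of Slc9a3 from -0.0293 to 0.132 (the lowest without mutant 3) and that of Best2 from -0.107 to 0.103 (0.103 without wild type 2, 0.0666 without mutant 1). Hba-a1 ran from -0.0111 to 1.28 and Dcn from -0.0502 to 1.16, both lowest without mutant 2. Reg3b ran from -0.132 (without wild type 2) to 1.60, and Ang4 from -1.13 to 0.401 (0.401, 0.374, 0.199 and 0.185 without wild type 1, wild type 2, mutant 2 and mutant 3). These sign changes were the same in colon arrays alone. The pair of wild type 1 and mutant 1 remained number 1 of the 15 by closeness over all probes and after centring. With 3 arrays per group the median 95% interval spans 0.115 to either side. Dim probes carry little signal over background, so their differences are bounded by it.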

Other observations

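A pair of antimicrobial genes spanned over 3 on the log2 scale within the wild-type group. They and Hoxd10 were chosen after their values were seen. Reg3b, a lectin related to Reg3g, read 14.18, 10.95 and 14.42 on the wild-type arrays and 14.13, 13.91 and 14.47 on the mutant arrays. Wild type 2 alone was low, by more than 2 on the log2 scale, and the groups overlapped. Ang4, a ribonuclease secreted by Paneth and goblet cells, read 13.65, 13.60 and 10.58 in wild type and 13.74, 11.86 and 11.88 in mutant. Wild type 3 was the lowest array and mutant 1 the highest. The differences were 0.99 ± 0.72 (SE, limma adjusted p = 0.946) and -0.12 ± 0.81. Without wild type 2 the Reg3b difference was -0.132, and without wild type 1 that of Ang4 was 0.401.

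Hoxd10, a homeobox gene of posterior body regions, was the 1 feature called without wild type 1. It read 8.09, 8.54 and 8.49 in wild type and 8.14, 8.02 and 8.12 in mutant. Wild type 1 lay among the mutant arrays, and without it the difference was -0.42 ± 0.04 (SE, limma adjusted p = 0.0469), against -0.28 ± 0.10 with it. In colon arrays alone without wild type 1, 0 features passed, with a smallest adjusted p of 0.929, so the call was lost there.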
